A study of Homo sapiens with 9 samples.

Results

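Dense clusters of distal accessible sites are stretches of chromatin in which many open sites lie close together and away from the ends of protein-coding genes. Here they were chosen by the control peak list of an ATAC-seq series. Peaks on chromosomes 1 to 22 that lay more than 1 kb from either end of every protein-coding gene were stitched together when fewer than 12.5 kb separated them, and stitched clusters of 4 or more peaks were kept. This gave 192 clusters out of 21270 stitched groups of any size. They held 948 of the 25672 distal control peaks, or 3.69%. Because the control list chose them, the number and crowding of control peaks in a cluster is a description and supports nothing, and a lower count in another list is partly built into the choice.

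The cells were HEK293T, an established human embryonic kidney line, grown without treatment. The control carried a Cas9 guide that targets no mammalian gene and was made in parallel with the knockouts. The knockouts lacked IGF2BP1, IGF2BP2 or IGF2BP3, which are RNA-binding proteins, and came from transient transfection of plasmids that carried 3 guides and GFP. Every knockout was 1 clone, so the effect of a clone and that of its genotype cannot be told apart. The control list stood for 2 libraries from batches 2 and 3, the IGF2BP1 knockout list for 3 libraries from batches 1, 2 and 3, and the IGF2BP2 and IGF2BP3 knockout lists for 2 libraries each from batches 2 and 3. Each group was deposited as 1 list of peak positions with no height or score. The depth was therefore unknown, no spread between replicates could be measured and no value below carries a test between groups. All 4 lists hold peaks at the ends of 10 of 12 genes that mark the HEK293 background, and at 2 to 5 of 13 haematopoietic, 2 to 4 of 10 liver and gut and 4 to 5 of 12 muscle and fibroblast genes.

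As background, closely packed distal sites often belong to enhancers, which are bound by transcription factors and act on promoters over a distance. Closely packed sites also arise where short genes are repeated in tandem, as 5S ribosomal RNA and U2 small nuclear RNA genes are. Some transfer RNA genes also lie in groups, while others are scattered. Transfer RNA and 5S genes are read by RNA polymerase III, from promoters that are often open in growing cells. None of these RNAs codes for a protein, so a rule that avoids only the ends of protein-coding genes keeps them.

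The sequences that show what kind of DNA lies in the clusters are promoters and miRNAs, taken from RefSeq on GRCh38.p14. A promoter here is the 250 bases before an annotated start, read 5′ to 3′ along the gene. TFAP2A, which encodes a transcription factor of epithelial and neural crest cells, has 2 annotated starts in its cluster, and the lists differed at them. The internal start has a peak in the control and IGF2BP3 knockout lists, and capitals mark the 90 bases under the control peak. The outer start has a peak in the 3 knockout lists and none in the control list, and capitals mark the 138 bases under all 3 of those peaks. MIR9-2HG is the host transcript of the neural miRNA miR-9, and MEF2C-AS2 is an antisense transcript next to MEF2C, a muscle and neural transcription factor. Both lie in 1 cluster on chromosome 5. MIR9-2HG has other start windows there, at 88673290 to 88673589 and 88684776 to 88685075, with no peak in any list. The MIR9-2HG start printed below and the MEF2C-AS2 start had a peak in all 4 lists. All 250 printed bases of each were under a control peak, and how many were under knockout peaks was not measured. Capitals mark the letters of an E-box (CAGCTG) and of a TEAD motif (GGAATG, here on the other strand). These promoters were picked after their values were seen.
TFAP2A internal start, chr6:10412392-10412641, minus strand: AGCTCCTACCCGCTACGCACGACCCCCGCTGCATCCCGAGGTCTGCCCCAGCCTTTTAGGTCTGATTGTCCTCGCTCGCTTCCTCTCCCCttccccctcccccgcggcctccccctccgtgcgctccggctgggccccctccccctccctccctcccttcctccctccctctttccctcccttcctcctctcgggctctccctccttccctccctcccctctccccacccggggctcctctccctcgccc
TFAP2A outer start, chr6:10419660-10419909, minus strand: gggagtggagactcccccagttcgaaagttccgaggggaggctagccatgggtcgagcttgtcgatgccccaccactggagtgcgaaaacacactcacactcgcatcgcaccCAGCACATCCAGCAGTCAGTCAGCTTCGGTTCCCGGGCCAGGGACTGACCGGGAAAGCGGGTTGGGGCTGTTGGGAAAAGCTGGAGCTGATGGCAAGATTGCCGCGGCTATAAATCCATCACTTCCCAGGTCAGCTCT
MIR9-2HG, chr5:88691042-88691291, minus strand: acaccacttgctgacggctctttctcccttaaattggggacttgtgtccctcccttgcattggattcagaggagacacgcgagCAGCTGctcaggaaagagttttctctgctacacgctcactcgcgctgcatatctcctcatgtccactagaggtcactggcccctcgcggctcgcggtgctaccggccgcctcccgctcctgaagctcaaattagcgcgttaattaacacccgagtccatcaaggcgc
MEF2C-AS2, chr5:88675968-88676217, plus strand: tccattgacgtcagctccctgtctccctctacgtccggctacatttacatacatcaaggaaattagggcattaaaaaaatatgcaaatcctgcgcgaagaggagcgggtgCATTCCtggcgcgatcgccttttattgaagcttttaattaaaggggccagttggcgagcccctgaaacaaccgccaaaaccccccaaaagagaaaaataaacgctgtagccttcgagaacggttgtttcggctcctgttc

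The clusters also span 20 miRNA hairpins and 33 mature miRNAs as RefSeq places them, and the mature miRNAs have 33 different seeds. The 33 include those of MIR2277, with a peak in every list, and of MIR5684, with a peak in none. Hairpins of these genes are not among the 20, so the hairpin shares below leave them out. The mature sequences shown are those of the MIR9-2 hairpin in the cluster just described, of MIR615 in the HOXC cluster, and of the 3 linked hairpins MIR23A, MIR27A and MIR24-2 in a cluster on ZSWIM4. The seed, bases 2 to 8, is in capitals.
miR-9-5p: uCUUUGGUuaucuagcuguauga
miR-9-3p: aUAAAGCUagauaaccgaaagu
miR-615-5p: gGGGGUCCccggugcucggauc
miR-615-3p: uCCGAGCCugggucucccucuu
miR-23a-3p: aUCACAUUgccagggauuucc
miR-27a-3p: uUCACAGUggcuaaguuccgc
miR-24-3p: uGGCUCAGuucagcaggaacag
A peak lay on 5 of the 20 hairpins in the control, IGF2BP2 knockout and IGF2BP3 knockout lists and on 6 in the IGF2BP1 knockout list. These shares of 25 to 30% stand beside 8.08 to 8.97% of the 1461 hairpins on chromosomes 1 to 22, and a span chosen for its peaks has more of its bases under one. The MIR9-2 hairpin had no control peak and a peak in all 3 knockout lists, a pattern seen at 2 of the 1461 hairpins (0.137%). The IGF2BP1 knockout peak there reached neither mature miR-9 sequence. The hairpin is not among the sites, given below, that were in all 3 knockout lists without a control peak. All 6 control peaks of its cluster were found in each knockout list. Each knockout list had 5 peaks there, covering 5.88, 5.77 and 5.7 kb (IGF2BP1, IGF2BP2, IGF2BP3), against 5.06 kb in the control list. MIR615 had a peak in the IGF2BP1 knockout list alone, as did 7 of the 1461 (0.479%). The MIR23A, MIR27A and MIR24-2 hairpins had no peak in any list, while the promoter of their host transcript MIR23AHG had a peak in the control and IGF2BP1 knockout lists only. Promoter windows with that pattern were 4 of the 199 in cluster spans (2.01%) and 135 of 33725 on chromosomes 1 to 22 (0.4%). The cluster around it, chr19:13825428-13855060, held 5 control peaks and 5, 4 and 3 knockout peaks. Where 3 knockout values stand together, here and below, they are in the order IGF2BP1, IGF2BP2, IGF2BP3.

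Most clusters were small and lay on a protein-coding gene or between such genes, while most of the largest lay on small RNA genes or in gene-free stretches. Of the 192 clusters, 128 held 4 control peaks, 26 held 5, 22 held 6 and 16 held 7 or more, with the largest at 24. They spanned 5.5 to 108.3 kb, with a median of 25 kb. Chromosome 1 held 32 clusters, chromosome 6 held 17 and chromosome 18 none. Sorted by what RefSeq places under them, 108 clusters (469 peaks) lay on a protein-coding gene and 47 (205 peaks) lay between such genes. Another 27 (190 peaks) covered a tRNA, rRNA, snRNA, snoRNA or scRNA gene, and 10 (84 peaks) covered no RefSeq gene and had their flanking coding genes at least 1 Mb apart when both distances were added. These 4 classes were defined after the clusters had been seen, and a cluster with a small RNA gene was counted there even if it touched a coding gene. Of the 16 clusters with 7 or more peaks, 8 were on small RNA genes, 6 were gene-free, 2 were on coding genes and none lay between coding genes. Of the 128 with 4 peaks, 8 were on small RNA genes, 1 was gene-free, 83 were on coding genes and 36 lay between coding genes.

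Single peaks showed the same make-up. A tRNA gene lay under 7.81% of cluster peaks and 0.429% of the distal peaks outside clusters. An snRNA gene lay under 3.27% and 0.109%, and an rRNA gene under 2.85% and 0.00404%. The gene table labels the snaR genes, described below, as snRNA, so the snRNA shares include them. The body of a protein-coding gene lay under 39.6% of cluster peaks and 48.6% of the other distal peaks, and a lncRNA under 19.3% and 18.7%. These differences describe where the rule finds clusters, since arrays of short genes are what it stitches together. RefSeq promoter windows, which run from 250 bases before a start into its first bases, were under 9.81% of cluster peaks and 7.93% of other distal peaks.

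**Figure D1:**
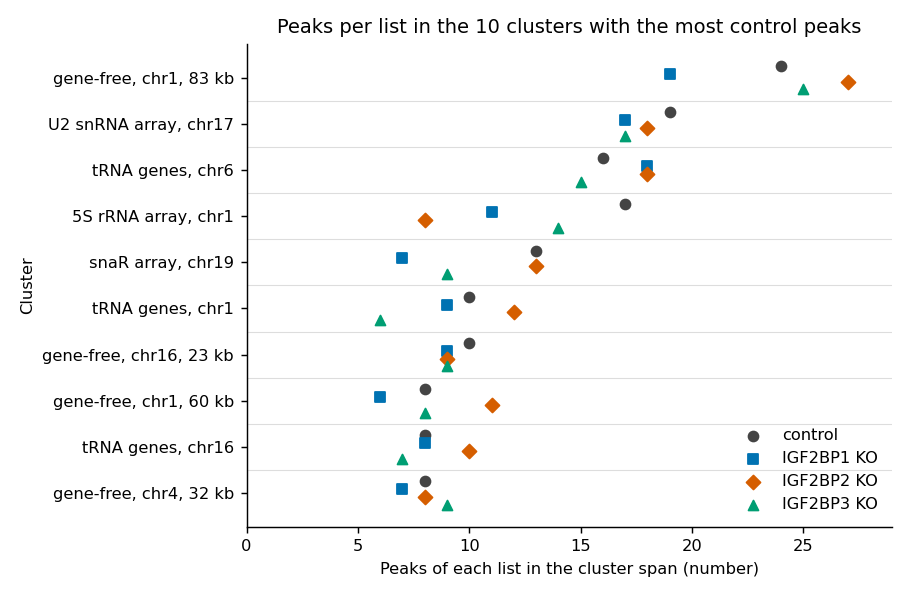
Number of peaks (x axis) of each of the 4 lists in the 10 clusters with the most distal control peaks (y axis), 1 point per list. The U2 array held 17 to 19 peaks in every list, while the 5S array ran from 8 to 17 and the snaR array from 7 to 13.

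The control peaks of the clusters were compared with each knockout list. A control peak was counted as found when a knockout peak shared at least 1 bp with it. Of the 948 cluster peaks, 85.4% (95% Wilson interval 83.1 to 87.5) were found in the IGF2BP1 knockout list, where 90.0% of all control peaks and 86.5% of the distal peaks outside clusters were found. In the IGF2BP2 knockout list 90.0% (87.9 to 91.7) were found, beside 91.2% of all control peaks and 88.6% of other distal peaks. In the IGF2BP3 knockout list 79.7% (77.1 to 82.2) were found, beside 81.4% and 74.4%. Gene-end peaks, within 1 kb of a coding gene's end, were found at 97.7, 96.8 and 96.1%. The cluster peaks thus sat near other distal peaks and under gene-end peaks in all 3 comparisons. The intervals cover counting error over peaks only, neighbouring peaks are not independent, and the 3 comparisons share the control list.

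Only in the IGF2BP3 knockout list did the interval of the cluster peaks leave the value of other distal peaks, by being higher. Weighting the other distal peaks to the width deciles of the cluster peaks gave 74.5% there, and weighting them to the chromosomes of the cluster peaks gave 73.9%. The corresponding values were 86.3 and 85.8% in the IGF2BP1 knockout list and 88.5 and 89.0% in the IGF2BP2 knockout list. Without the small RNA and gene-free clusters the share was 87.1, 88.6 and 78.2% in the 3 lists, which in the IGF2BP1 knockout list turns the direction against other distal peaks (86.5%). Keeping only the widest peaks of each list, as many as the control list has, lowered the cluster shares to 65.3, 63.7 and 70.9% and those of other distal peaks to 69.3, 64.7 and 67.3%. Under that setting the IGF2BP3 knockout list had the highest share instead of the lowest, so the order of the knockout lists depends on which peaks are kept.

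**Figure D2:**
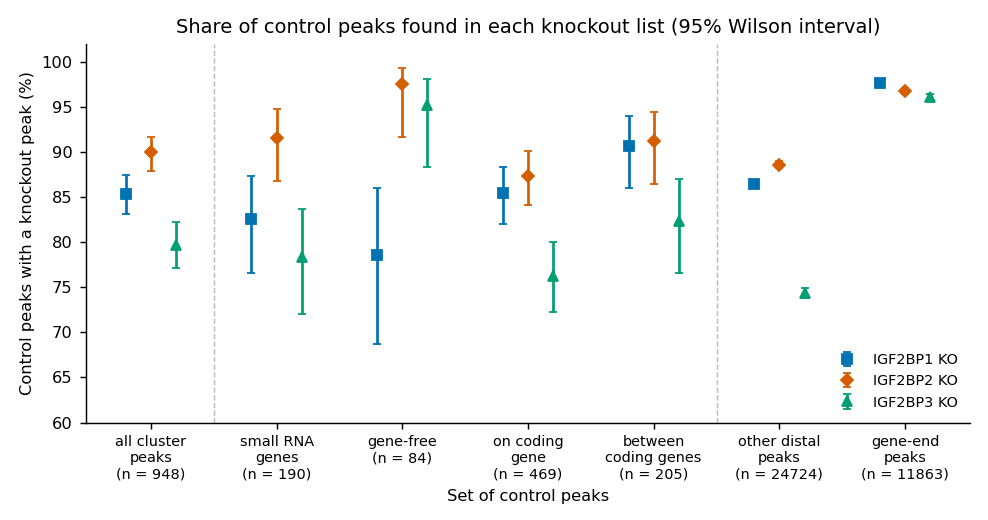
Share of control peaks (y axis, percent, axis from 60) found in each knockout list, for all cluster peaks, the 4 classes of cluster and the peaks outside clusters (x axis), with 95% Wilson intervals. Gene-free clusters range from 78.6% in the IGF2BP1 knockout list to 97.6% in the IGF2BP2 knockout list, and gene-end peaks lie above 96% in every list.

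The classes of cluster differed in how much of them was found. In gene-free clusters 78.6% (68.7 to 86.0) of the 84 control peaks were found in the IGF2BP1 knockout list, 97.6% (91.7 to 99.3) in the IGF2BP2 knockout list and 95.2% (88.4 to 98.1) in the IGF2BP3 knockout list. On small RNA genes the shares were 82.6, 91.6 and 78.4%. On coding genes they were 85.5, 87.4 and 76.3%, and between coding genes 90.7, 91.2 and 82.4%. Narrow peaks were found less often than wide peaks in every list. Among distal control peaks of 215 to 511 bp, the narrowest in 4 equal parts of the list, 65.7, 79.9 and 55.5% of cluster peaks were found, and among the widest, from 871 bp up, 97.7, 97.3 and 95%. Other distal peaks gave 67.9, 74.8 and 49.9% and 97.3, 96.9 and 91.4% at the same widths. Gene-free cluster peaks had a median width of 457 bp in the control list and small RNA cluster peaks 814 bp, against 694 bp over all cluster peaks and 668 bp over other distal peaks.

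Taken cluster by cluster, every control peak was found in 101 clusters (52.6%) in the IGF2BP1 knockout list, 117 (60.9%) in the IGF2BP2 knockout list and 73 (38.0%) in the IGF2BP3 knockout list. In 50 clusters (26.0%) every control peak was found in all 3 lists. At the threshold of the rule, the 128 clusters of 4 peaks had 86.3, 88.7 and 77.9% of their peaks found, and the 462 groups of 3 peaks just below it had 85.4, 88.8 and 76.2%. All peaks were found in 62.3, 70.6 and 46.8% of the groups of 3 and in 58.6, 59.4 and 42.2% of the clusters of 4, where more peaks must be found. In clusters of 6 or more peaks the shares were 42.1, 68.4 and 36.8%. The share thus did not keep falling with cluster size in the IGF2BP2 knockout list.

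The U2 array had nearly the same number of peaks in every list, and the peaks were wider in the control list. It lies at chr17:43233180-43334466 over 13 U2 snRNA genes, whose product pairs with the branch site in splicing. The control list had 19 peaks there, the IGF2BP1 knockout list 17, the IGF2BP2 knockout list 18 and the IGF2BP3 knockout list 17. All 13 genes had a peak in all 4 lists, and the median distance between neighbouring peaks was 5.82, 5.91, 5.85 and 5.83 kb, beside 5.5 kb between neighbouring genes. The median peak width was 1219 bp in the control list and 908, 886 and 845 bp in the knockout lists, and the peaks covered 19.3 kb in the control list and 17.5, 17.5 and 15.9 kb in the knockout lists. How reads that match several U2 copies were placed is not given in the sources used here, so which copy carries a peak is uncertain. The part this plays in these values was not tested.

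The clusters over 45S ribosomal RNA genes on chromosome 21 varied more. The cluster chr21:8376901-8401768 had 6 control peaks and 4, 6 and 5 in the knockout lists, with 66.7, 100 and 83.3% of the control peaks found. The cluster chr21:8193792-8220167 had 5 control peaks and 4, 4 and 3, with 60, 80 and 80% found. The third, chr21:8432362-8446398, had 4 control peaks and 4, 5 and 4. Each of these clusters covers 1 long 45S gene, so a peak somewhere on the gene, which every list had, says little. The U3 snoRNA, which takes part in processing the ribosomal RNA precursor, has 4 genes in 2 clusters on chromosome 17, all with a peak in every list. The cluster chr17:19162378-19197086 had 6, 5, 7 and 6 peaks in the order control, IGF2BP1, IGF2BP2 and IGF2BP3 knockout, and chr17:19055079-19089682 had 6, 5, 6 and 5.

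The 5S and snaR arrays were uneven. The 5S array, chr1:228609005-228646711, overlaps RHOU and holds 17 RNA5S genes, which encode the 5S RNA of the large ribosomal subunit. It had 17 control peaks, 16 of them distal, and 11, 8 and 14 peaks in the knockout lists. A peak lay on 16 of the 17 genes in the control list, on 11 in the IGF2BP1 knockout list, on 7 in the IGF2BP2 knockout list and on 12 in the IGF2BP3 knockout list, and 5 genes had a peak in all 4 lists. Neighbouring control peaks were 2.24 kb apart in the median, the same as the genes, and neighbouring IGF2BP2 knockout peaks 6.47 kb apart.

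The snaR genes encode short RNAs transcribed by RNA polymerase III. Their larger array, chr19:50092314-50148409, had 13 control peaks and 7, 13 and 9 peaks in the 3 knockout lists. The smaller array, chr19:47904122-47941701, had 6 control peaks and 4, 7 and 2. Over both arrays a peak lay on 15 of 19 snaR genes in the control list and on 6, 14 and 10 in the knockout lists. The IGF2BP1 knockout list was thus the lowest on snaR genes and the IGF2BP2 knockout list the lowest on 5S genes. Copies in these arrays are nearly identical, and how reads that match several copies were placed is not given in the sources used here, so which copy carries a peak is uncertain and the part this plays in the values was not tested.

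**Figure D3:**
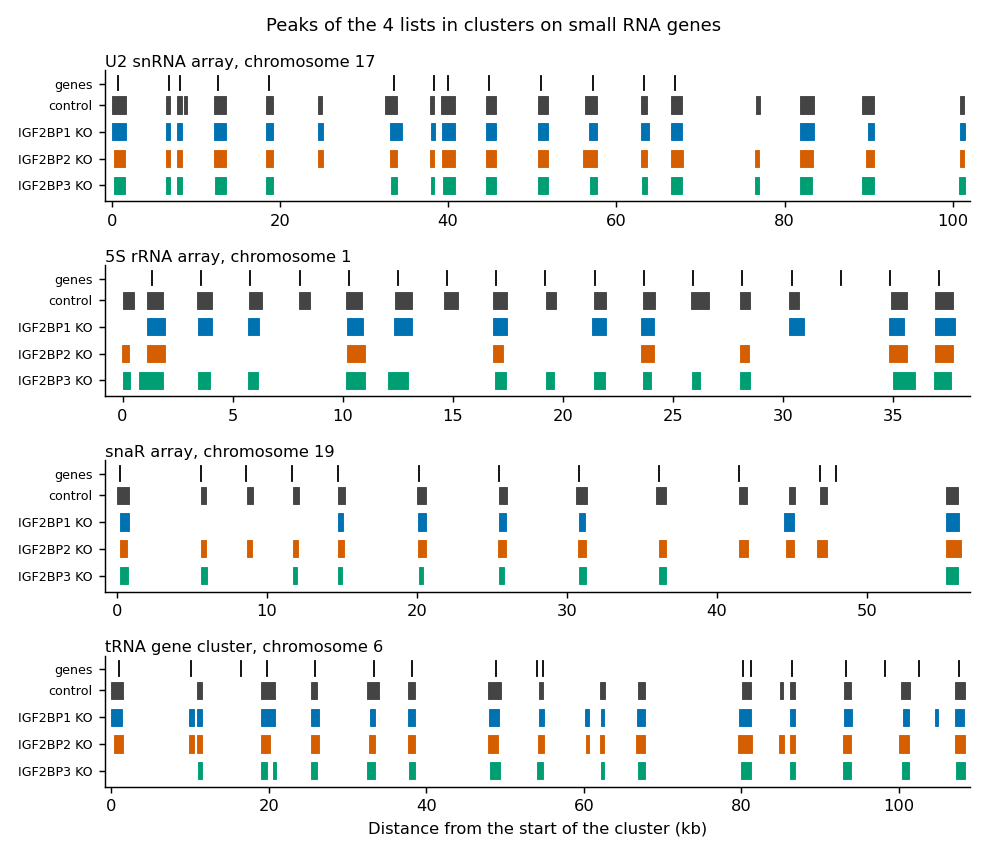
Peaks (boxes) of the 4 lists in 4 clusters on small RNA genes, by distance in kb from the start of the cluster (x axis), with the small RNA genes as ticks on top. In the U2 array peaks recur in every list on all 13 genes, while the 5S array has 17 boxes in the control row and 8 in the IGF2BP2 knockout row.

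Clusters with tRNA genes numbered 16. Of their 99 distal control peaks, 89.9% were found in the IGF2BP1 knockout list, 97.0% in the IGF2BP2 knockout list and 75.8% in the IGF2BP3 knockout list. The same shares were 90.0, 91.2 and 81.4% over all control peaks and 86.5, 88.6 and 74.4% over distal peaks outside clusters, so the IGF2BP2 knockout value was above both and the other values lay between them. Every control peak was found in 7, 13 and 3 of the 16 clusters. These clusters span 122 tRNA genes, of which 101 had a control peak. Of those 101 genes, 88.1% had a peak in the IGF2BP1 knockout list, 94.1% in the IGF2BP2 knockout list and 75.2% in the IGF2BP3 knockout list. Outside clusters 191 of 317 tRNA genes had a control peak, and 94.8, 95.8 and 88.5% of these had a peak in the same lists. The gap to the genes in clusters is 169 of 191 against 76 of 101 in the IGF2BP3 knockout list and 183 of 191 against 95 of 101 in the IGF2BP2 knockout list, and it was not tested.

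Single tRNA clusters differed in direction. The longest cluster of all, chr6:28709580-28817928, covers 17 tRNA genes between SCAND3 and TRIM27 and had 16 control peaks and 18, 18 and 15 peaks in the knockout lists. The cluster with the most tRNA genes, 25, at chr1:161421895-161471402 between CFAP126 and FCGR2A, had 10 control peaks and 9, 12 and 6. At chr16:3149695-3184378, with 10 tRNA genes between ZNF213 and OR1F1, the counts were 8, 8, 10 and 7. At chr6:26729999-26771687, with 6 tRNA genes, they were 6, 7, 6 and 6. The IGF2BP3 knockout list had the lowest count in the first 3 of these 4.

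Gene-free clusters lay far from coding genes on at least 1 side. The largest cluster by peaks, chr1:143184647-143267507, is 635 kb from H3-7 on one side and 21722 kb from the nearest coding gene on the other. It had 24 control peaks and 19, 27 and 25 peaks in the knockout lists. The clusters at chr1:124721952-124782298 and chr1:122880056-122904528 lie in the same gap between coding genes and had 8, 6, 11 and 8 peaks and 5, 2, 5 and 4 peaks in the order control, IGF2BP1, IGF2BP2 and IGF2BP3 knockout. At chr16:34572581-34595830 the counts were 10, 9, 9 and 9, with every control peak found in all 3 knockout lists. At chr4:49091805-49123928 they were 8, 7, 8 and 9. None of the 10 gene-free clusters had more peaks in the IGF2BP1 knockout list than in the control list, and 8 had fewer. Which repeats lie there was not analysed here, and how reads with several matches were placed is not given in the sources used. The part this plays in the counts and in the shares found in gene-free clusters was not tested.

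Several clusters lay on or next to regulators of development. Next to means that the gene is the nearest coding gene on 1 side, at any distance. MEIS1 encodes a homeobox cofactor of HOX proteins, and its cluster, chr2:66555630-66578246, had 4 control peaks and 2, 3 and 1 peaks in the knockout lists. The peak at its far end, outside the gene body, was 3371 bp wide in the control list and 3598, 2425 and 2292 bp in the knockout lists, and it alone was in all 4. The control peak at 66566995 to 66567618, 624 bp, was in no knockout list. A cluster on SPRED2, an inhibitor of Ras signalling, lies next to MEIS1 at a distance of 1067 kb and had 4, 3, 3 and 2 peaks.

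The HOXC cluster, chr12:54028334-54059839, covers HOXC4, HOXC5 and HOXC6, which set position along the body axis. It had 6 control peaks and 6, 5 and 5 in the knockout lists, but these were not the same sites, since 4, 3 and 4 of the control peaks were found. The control peaks at 54038756 to 54039253 and 54039834 to 54040410 were in no knockout list. A site absent from the control list was present in the IGF2BP1 knockout list from 54032499 to 54034160 and in the IGF2BP2 knockout list from 54033299 to 54033896, and the first of these covers the MIR615 hairpin.

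The TFAP2A cluster, chr6:10403864-10426641, had 5 control peaks and 4, 5 and 5 in the knockout lists. At the internal start printed above, the control peak was 443 bp wide, the IGF2BP3 knockout peak 558 bp, and the other 2 lists had none. At the outer start, the knockout peaks were 819, 915 and 757 bp wide and the control list had none. A promoter window with that second pattern was found at 3 of the 199 windows in cluster spans (1.51%) and at 325 of 33725 on chromosomes 1 to 22 (0.964%), so it was uncommon in both. The pattern of the internal start, a peak in the control and IGF2BP3 knockout lists alone, was found at 4 of the 199 windows (2.01%) and at 38 of the 33725 (0.113%). Spans chosen for their control peaks favour a pattern with a control peak.

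Next to FOXC1, a forkhead factor of kidney and eye development, 2 clusters on GMDS had nearly the same number of peaks in every list. The nearer, chr6:1666734-1702955, at 52.8 kb from FOXC1, had 6 control peaks and 5, 6 and 6 in the knockout lists. The farther, chr6:1802401-1851109, had 6, 6, 6 and 5, with 4 of the 6 control peaks found in the IGF2BP3 knockout list. WNT9B, a ligand that induces kidney tubules, lies under chr17:46835667-46863336, which had 4 control peaks and 2, 4 and 3 in the knockout lists. The peak at the WNT9B promoter, 1258 bp wide in the control list, was in all 4 lists at 1358, 1421 and 1429 bp in the knockouts.

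Of the genes of the insulin-like growth factor axis, 2 lay under a cluster, and both clusters had fewer peaks in every knockout list than in the control list. The same held for 44 of the 192 clusters (22.9%), and the choice of clusters on the control list favours it. IGF1R encodes the receptor, and its cluster, chr15:98850950-98881873, had 5 control peaks and 4, 4 and 3 in the knockout lists. The 3 widest control peaks there, of 1255, 1153 and 1048 bp, were in every list, while the 316 bp peak at the far end was in none of the knockout lists. The cluster on IGFBP5, which encodes a binding protein of these factors, at chr2:216682341-216700602, had 5 control peaks and 4, 3 and 3. In the IGF2BP1 and IGF2BP2 knockout lists 1 wide peak, of 1254 and 1318 bp, overlapped a pair of control peaks of 572 and 638 bp, so part of the lower count is a merging of neighbours.

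Signalling genes were mixed. WNT5A, a non-canonical Wnt ligand, had 4, 4, 3 and 3 peaks in its cluster at chr3:55485024-55491970, again in the order control, IGF2BP1, IGF2BP2 and IGF2BP3 knockout. The cluster between SMAD6, an inhibitory SMAD, and SMAD3, which carries TGF-beta signals, at chr15:66842059-66863439, had 4 peaks in every list, all at the control sites. It is 59.2 kb from SMAD6 and 202 kb from SMAD3. A cluster 17.6 kb from WNT7B had 4, 4, 5 and 3. Another on CPN2, 176 kb from HES1, a Notch target, had 4, 4, 3 and 3. PTPN14, a phosphatase that restrains the Hippo coactivator YAP, had 4 peaks in every list at chr1:214504860-214532613, all at control sites. The cluster on HOOK2 next to JUNB, an AP-1 subunit, had 4, 3, 4 and 3. The cluster on TMEM184B next to MAFF, chr22:38257901-38284253, had 6, 4, 3 and 4, and its narrowest control peaks, 258 and 271 bp, were in no knockout list.

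The lowest share found in the IGF2BP3 knockout list, 25%, was that of 8 clusters of 4 peaks, among them those at MEIS1, at SORCS1 and between SNX10 and SKAP2. SORCS1, a sorting receptor of neurons, had 4 peaks at chr10:107012766-107038591 in the control, IGF2BP1 knockout and IGF2BP2 knockout lists and 1 in the IGF2BP3 knockout list. The control peaks missing there included a wide peak of 1476 bp. The cluster between SNX10 and SKAP2, chr7:26508907-26535739, had 4, 4, 3 and 1. In the IGF2BP1 knockout list the lowest share was 40.0%, at the gene-free cluster chr1:122880056-122904528, and 18 clusters followed at 50%, among them the smaller snaR array, MEIS1, SPRED2 and WNT9B. In the IGF2BP2 knockout list it was 40.0%, on TMEM184B, followed by 43.8% at the 5S array and by 7 clusters at 50%, among them the HOXC and WNT5A clusters.

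Some clusters had more peaks in a knockout list than in the control. Between CHRNB4 and ADAMTS7, chr15:78709095-78756934, the counts were 6, 7, 7 and 7, because a site from 78740337 to 78740895 was listed in every knockout and absent from the control. Over all clusters, 18 had more peaks in the IGF2BP1 knockout list than in the control and 96 had fewer. The numbers were 33 and 70 for the IGF2BP2 knockout list and 16 and 117 for the IGF2BP3 knockout list.

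Sites present in knockout lists alone were few in the clusters. The cluster spans held 964 control peaks of any kind and 840, 921 and 799 peaks of the knockout lists, which is 0.871, 0.955 and 0.829 times the control. In bases, control peaks covered 748 kb of the spans and knockout peaks 740, 689 and 613 kb, or 0.989, 0.921 and 0.82 times the control. By count the IGF2BP2 knockout list was thus nearest to the control list, and by bases the IGF2BP1 knockout list was. Over whole lists on chromosomes 1 to 22 the knockout lists were 1.3, 1.54 and 1.12 times as long as the control list. Of the peaks inside clusters, 33 (3.93%), 55 (5.97%) and 34 (4.26%) had no control peak, against 31.4, 40.1 and 26.9% of each whole list. A span chosen for its control peaks has little room without one, so these lower shares follow in part from the choice. Merged over the 3 lists, 74 sites in clusters had no control peak, and 13 of them (17.6%) were in all 3 knockout lists, beside 15.1% of 31296 such sites outside clusters. The 13 include the TFAP2A outer start, the site between CHRNB4 and ADAMTS7, and sites on NAV1, GSE1, LTBP4 and RIPK4.

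In the other direction, 672 of the 948 control peaks (70.9%) were in all 3 knockout lists, beside 68.0% of other distal peaks. There were 31 (3.27%) in none, beside 4.96% of other distal peaks. The 31 lay in 27 clusters and had a median width of 407 bp.

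The rule was then applied to each knockout list in turn, so that each list chose its own clusters. It gave 342 clusters in the IGF2BP1 knockout list, 641 in the IGF2BP2 knockout list and 269 in the IGF2BP3 knockout list, beside 192 in the control list. These knockout lists hold 1.42, 1.76 and 1.16 times as many distal peaks as the control list, and a longer list has more peaks to stitch. Their clusters held 4.38, 6.93 and 4.36% of their distal peaks, beside 3.69% in the control list. Of the control clusters, 121 (63.0%), 143 (74.5%) and 103 (53.6%) overlapped a cluster of these lists, and 35.7, 22.2 and 38.3% of the knockout clusters overlapped a control cluster. A cluster was present in all 3 knockout lists at 75 of the 192 (39.1%), and in none at 26. Among small RNA clusters this was 18 of 27, among gene-free clusters 7 of 10, between coding genes 22 of 47 and on coding genes 28 of 108. Of the IGF2BP2 knockout clusters, 36 overlapped clusters of both other knockout lists and no control cluster. Inside clusters chosen on a knockout list, the control list in turn held fewer peaks, 0.71, 0.585 and 0.714 times as many as the knockout list in question. The list used to choose clusters was therefore the fuller in each pair, whichever it was.

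**Figure D4:**
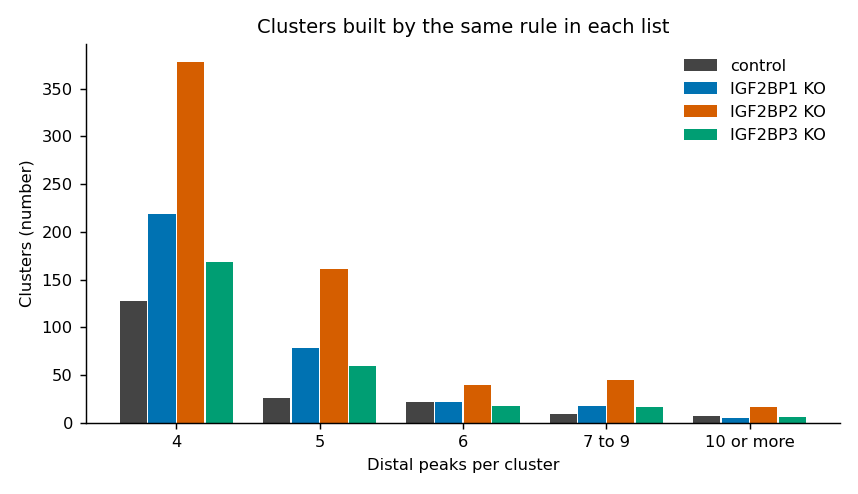
Number of clusters (y axis) by distal peaks per cluster (x axis) when the same rule is applied to each of the 4 lists. Sizes from 7 up are pooled as 7 to 9 and 10 or more, and the IGF2BP2 knockout list has the most clusters in each of these 5 bins, with 378 of 4 peaks beside 128 in the control list. That list also holds 1.76 times as many distal peaks as the control list.

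Peak width is the only size the lists hold. For cluster peaks matched 1 to 1, the median log2 ratio of knockout to control width was 0.08 in the IGF2BP1 knockout list, -0.01 in the IGF2BP2 knockout list and -0.07 in the IGF2BP3 knockout list. Other distal peaks gave 0.17, 0.0 and -0.05. On small RNA genes the medians were 0.01, -0.05 and -0.17. Cluster peaks in the IGF2BP1 knockout list were thus widened less than other distal peaks, and those on small RNA genes in the IGF2BP3 knockout list were the most narrowed.

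The genes of the clusters were counted against gene lists. A cluster lay on 138 of 19126 protein-coding genes (0.722%), and 348 more (1.82%) were next to one and under none. These 138 genes were longer, with a median of 49.7 kb against 24.5 kb over all genes, and long genes have more room for a cluster. Of 44 regulators of kidney development, 3 lay under a cluster (MEIS1, TFAP2A, WNT9B) and 2 next to one (FOXC1, SIX2). Of 26 oncofetal and insulin-like growth factor genes, 2 lay under a cluster (IGF1R, IGFBP5) and IGFBP2 next to one. Of 54 Wnt, Notch and TGF-beta genes, 1 lay under a cluster (WNT5A) and 5 next to one. Of 33 AP-1 and Hippo genes, 1 lay under a cluster (PTPN14) and 2 next to one (JUNB, MAFF). No cluster lay on or next to any of 31 neural lineage genes or 76 innate immune genes. Of 270 genes in developmental transcription factor families, 8 lay under clusters, among them HOXC4, HOXC5, HOXC6, HOXD3, HOXD4 and SIX3. With counts this small, the lists are described only. A peak at a gene end was present for 57.2% of the genes under clusters in the control list and for 61.6, 55.1 and 58.0% in the knockout lists, beside 66.9, 69.1, 68.7 and 67.5% of all coding genes.

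Of 125 promoter windows with a control cluster peak, 94.4, 88.8 and 90.4% had a peak in the knockout lists. The shares were 96.9, 94.2 and 92.2% of the 2562 windows with another distal control peak and 98.6, 96.7 and 96.8% of all 15986 windows with a control peak, so the windows in clusters had the lowest of the 3 shares in each list, a difference that was not tested. Windows of neighbouring starts overlap and share peaks, and the 125 rest on 93 cluster peaks. Motif letters were searched on both strands of these windows and set beside the windows under other distal control peaks and all 33725 windows of the same length. The ETS letters CGGAAG were in 24.0% of the 125, in 20.3% of windows under other distal peaks and in 19.5% of all windows. In the same order, the E-box CAGCTG was in 16.8, 20.0 and 18%, the CTCF core CCANNAGG in 18.4, 22.3 and 21.3%, and the TEAD letters GGAATG in 12.0, 13.9 and 14.0%. The AP-1 letters TGANTCA were in 6.4, 5.85 and 7.67%, the GATA letters AGATAA in 4.0, 6.56 and 10.4% and the SOX letters ACAATGG in 1.6, 2.26 and 3.21%. A match is a description of the letters only. MALAT1, an abundant nuclear lncRNA, has 2 promoter windows in its cluster, and the one at 65497488 to 65497787 had a peak in all 4 lists while the one at 65498795 to 65499094 had none in any. Its cluster on chromosome 11 had 6 control peaks and 6, 5 and 7 in the knockout lists.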

How the data were processed

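ATAC-seq libraries of HEK293T cells were represented by 4 peak lists. Per the submitters' processing notes, the tools named are fastp 0.24.1, BWA 0.7.17, MACS2 3.0.0 and bedtools, with build GRCh38. Their settings, the peak threshold, the handling of reads with several matches, any shift of cut sites and the merging of libraries into a list are not given in the sources used here. The deposited lists hold chromosome, start and end positions of peaks, with no count or score, so depth and its effect on each list are unknown. Starts were converted to count from 1.

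Clusters, overlaps and widths were computed with Python 3.11.15, pandas 2.3.3 and numpy 2.4.6, intervals with statsmodels 0.14.6 and scipy 1.17.1. The overlap, distance and stitching functions, each checked separately, gave the known answer in 20 of 20 simulated lists. Stitching was checked there at a distance other than 12.5 kb, and the full rule was not simulated. Genes came from the RefSeq table of GRCh38.p14, which gives no exons, so exonic or intronic position was not determined.

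The cluster rule, gene lists and comparisons were chosen with earlier results of these data known. The 4 classes and the printed sequences were chosen after values were seen, and the pattern for transcription factor families was corrected after its first result. Named clusters were the 10 with the most control peaks, the 3 per knockout list with the lowest share found and the 3 with the largest gain, and up to 6 per gene list. A cluster that this rule names is not reported here. Other clusters named with miRNAs, promoters, ribosomal RNA or U3 genes fall outside this rule and were chosen after their values were seen. Alternatives were other stitching distances, cluster sizes, gene distances, peak merging, overlap of at least 50% of the control peak, and the widest peaks only.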

Additional observations from a re-analysis of the deposited data

Results flagged for a closer look

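In 5 clusters at least 1 knockout list had 2 or more peaks fewer than the control list and another had 2 or more peaks more. These differences were not tested, since each group is 1 list. In the gene-free cluster chr1:124721952-124782298 the differences from 8 control peaks ran between -2 and 3. In the gene-free cluster chr1:143184647-143267507 they ran between -5 and 3 from 24 control peaks. In the tRNA cluster chr1:161421895-161471402 they ran between -4 and 2 from 10 control peaks. In the gene-free cluster chr10:41879283-41915055, with 7 control peaks and 4, 9 and 8 in the knockout lists (IGF2BP1, then IGF2BP2, then IGF2BP3), they ran between -3 and 2. In the cluster chr20:31054639-31076203, with 4 control peaks and 2, 4 and 6, they ran between -2 and 2. In 4 of the 5 the IGF2BP1 knockout list was the lowest, and in the tRNA cluster the IGF2BP3 knockout list was.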

How the results depend on the processing

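No paired analysis was possible because each group is 1 list and its libraries cannot be separated. For the same reason no library was left out. Values below are in the order IGF2BP1, IGF2BP2 and IGF2BP3 knockout where 3 are given. "Complete" means clusters with every control peak found, and "matched" means control clusters that overlap a cluster built in the knockout list.

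Stitching at 5 kb gave 29 clusters, with 78.6% of peaks found in the IGF2BP1 and 83.0% in the IGF2BP3 knockout list. There the IGF2BP1 peak ratio was 0.78, the width medians were 0.02 (IGF2BP1) and -0.01 (IGF2BP3), complete clusters were 34.5% (IGF2BP1) and 69.0% (IGF2BP2), matched clusters 62.1% (IGF2BP3), and 1 listed gene lay under a cluster. Stitching at 25 kb gave 655 clusters, 77.0% found and 30.1% complete (IGF2BP3), a width median of 0.12 (IGF2BP1), 75% and 85.2% matched (IGF2BP1, IGF2BP2) and 22 listed genes. Clusters of 3 or more peaks numbered 654, with a width median of 0.11 and 70.2% matched (IGF2BP1), 67.7% complete (IGF2BP2) and 12 listed genes. Clusters of 6 or more numbered 38, with 92.5% (IGF2BP2) and 82.7% (IGF2BP3) found, width medians of 0.02 and 0.0 (IGF2BP1, IGF2BP2), 42.1% and 68.4% complete (IGF2BP1, IGF2BP2), 89.5% matched (IGF2BP2) and 0 listed genes. Listed genes under clusters numbered 7 in the report and 4 when peaks had to lie over 2.5 kb from gene ends.

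The widest peaks of each list gave 65.3, 63.7 and 70.9% found, peak ratios of 0.65, 0.646 and 0.73, 18.8, 19.8 and 24.0% complete, 27.1, 33.9 and 37.5% matched, and width medians of 0.11 (IGF2BP1) and 0.01 (IGF2BP2). This setting leaves the control list whole and removes narrow peaks from the knockout lists. Without small RNA and gene-free clusters, an alternative chosen after seeing the data, the IGF2BP1 width median was 0.11. Of 125 values under the settings listed beforehand, 79 stayed within the counting interval or 1.5 times the count, and of 18 under settings added later, 17 did.

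The share found was lower in clusters than in other distal peaks for the IGF2BP1 knockout list and higher for the IGF2BP3 knockout list under both stitching distances, at 6 or more peaks and with the widest peaks. Without small RNA and gene-free clusters the IGF2BP1 direction turned, with 87.1 against 86.5% of other distal peaks, while the IGF2BP3 share stayed higher at 78.2 against 74.4%. For the IGF2BP2 knockout list it was higher at 25 kb and 6 or more peaks and lower at 5 kb (88.1 against 88.6%) and with the widest peaks (63.7 against 64.7%).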
